A study of Mus musculus with 14 samples.

Results

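A set of 9 genes of DNA replication was followed in mouse uterus: the helicase genes Mcm2, Mcm3, Mcm4, Mcm5, Mcm6 and Mcm7, the ribonucleotide reductase genes Rrm1 and Rrm2, and the sliding clamp gene Pcna. They were taken as the genes of a named list with a probe in the authors' table of log2 values, and all 9 had one. Their 14 probes passed the filter on dim probes, so 9 of the 10478 genes tested are described here. RNA came from C57BL/6 mice aged 8 weeks and was hybridised to 14 Illumina BeadChips. The non-pregnant group had 5 arrays of uterus. The E12_PBS group had 5 arrays of uterine tissue from pregnant mice given PBS, called PBS arrays, and the E12_PC61 group had 4 from pregnant mice given PC61, called PC61 arrays. Pregnant mice were at day 12 after fertilization. PC61 is an antibody to CD25 given to remove regulatory T cells. Since no label says whether samples of a group are separate animals, the p-values cover the spread among samples alone, and that spread could be technical. The labels also do not say whether placenta or embryo was removed, nor give the oestrous stage of the non-pregnant mice.

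The proteins encoded by Mcm2 to Mcm7 form a ring that is loaded onto DNA at replication origins in G1, which licenses each origin to fire, and that unwinds DNA ahead of the fork in S phase. Ribonucleotide reductase makes deoxyribonucleotides from ribonucleotides. Rrm1 encodes its large subunit and Rrm2 the small subunit that cycling cells accumulate in S phase. Pcna encodes the ring that holds DNA polymerases on their template. In early mouse pregnancy the uterine stroma proliferates and differentiates into decidua, where many cells become polyploid, while the placenta and embryo add dividing cells of their own.

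Promoter sequences are shown for the 3 helicase genes that held a searched E2F-type octamer upstream of the start, and for both reductase genes, whose levels ran against the helicase genes on some arrays. They come from RefSeq on GRCm38.p6, which held windows of 250 bases before to 50 after the start for 8 of the 9 genes, with 2 windows for Mcm7. Mcm4 had none. The 250 upstream bases are printed 5′ to 3′ on the gene's strand. Capitals mark E2F-type octamers (TTTCCCGC, TTTGGCGC, TTTCGCGC or TTTGCCGC, on either strand) in the Mcm promoters, and CCAAT boxes on either strand in those of Rrm1 and Rrm2. Octamers overlap in the Mcm5 run and in the first run of Mcm6.

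The Mcm5 window upstream of the start is chr8:75109259-75109508 on the plus strand, that of Mcm6 is chr1:128359706-128359955 on the minus strand, and that of Mcm7 is chr5:138171884-138172133 on the minus strand. The Rrm1 window is chr7:102441445-102441694 and the Rrm2 window is chr12:24708004-24708253, both on the plus strand.
Mcm5: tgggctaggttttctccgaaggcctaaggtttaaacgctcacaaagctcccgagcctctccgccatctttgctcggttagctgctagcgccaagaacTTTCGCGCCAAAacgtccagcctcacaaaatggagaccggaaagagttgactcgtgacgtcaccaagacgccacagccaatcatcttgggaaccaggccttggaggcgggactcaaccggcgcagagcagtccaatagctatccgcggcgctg
Mcm6: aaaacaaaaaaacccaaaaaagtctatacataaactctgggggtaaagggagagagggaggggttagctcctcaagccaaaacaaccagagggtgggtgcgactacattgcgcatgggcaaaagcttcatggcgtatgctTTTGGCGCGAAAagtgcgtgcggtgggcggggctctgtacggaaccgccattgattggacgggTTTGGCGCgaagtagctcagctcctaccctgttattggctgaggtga
Mcm7: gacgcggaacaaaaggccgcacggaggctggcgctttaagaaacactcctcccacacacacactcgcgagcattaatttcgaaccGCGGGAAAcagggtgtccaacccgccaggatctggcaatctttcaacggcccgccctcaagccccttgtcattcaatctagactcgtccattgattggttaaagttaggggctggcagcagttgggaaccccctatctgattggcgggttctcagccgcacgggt
Rrm1: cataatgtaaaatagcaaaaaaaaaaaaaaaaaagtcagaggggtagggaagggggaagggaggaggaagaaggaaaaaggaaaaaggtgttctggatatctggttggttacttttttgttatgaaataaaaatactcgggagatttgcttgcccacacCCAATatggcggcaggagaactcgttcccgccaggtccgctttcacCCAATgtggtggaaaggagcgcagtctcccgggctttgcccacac
Rrm2: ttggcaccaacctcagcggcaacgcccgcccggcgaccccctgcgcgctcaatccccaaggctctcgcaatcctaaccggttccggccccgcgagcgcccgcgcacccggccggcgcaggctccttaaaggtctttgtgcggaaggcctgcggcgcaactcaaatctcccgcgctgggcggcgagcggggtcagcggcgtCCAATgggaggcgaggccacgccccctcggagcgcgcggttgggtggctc

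An E2F-type octamer was found in the windows of 4 genes, Mcm3, Mcm5, Mcm6 and Mcm7, and in 2.26% of all 32851 windows of the same length. In Mcm5 the octamers lay at -153 to -142 relative to the start. In Mcm6 they lay at -110 to -99 and -47 to -40, and in Mcm7 at -165 to -158 and 17 to 24. These Mcm7 octamers lay in the window whose upstream part is printed, and the other Mcm7 window held none. Mcm3 had its octamers at 20 to 27 and 39 to 46 bases after the start. The windows of Mcm2, Rrm1, Rrm2 and Pcna did not hold these letters. A CCAAT box was found for all 8 genes and in 37.4% of all windows. These matches describe letters only.

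Between 16607 and 19729 probes were detected per array, and the median intensity ranged from 93.0 to 139. Correlations between arrays were 0.939 to 0.989 within the non-pregnant group, 0.971 to 0.987 within the PBS group and 0.861 to 0.980 within the PC61 group. The least similar PC61 arrays were thus less alike than any arrays within the other groups. Foxp3, which marks regulatory T cells, had log2 levels of 9.42 ± 0.16 (SD, n = 5), 9.44 ± 0.14 (n = 5) and 9.38 ± 0.37 (n = 4) in the non-pregnant, PBS and PC61 groups. Smooth muscle markers, which define the uterine wall, had a mean log2 level of 10.65 to 11.32 on non-pregnant, 9.51 to 10.02 on PBS and 8.96 to 11.58 on PC61 arrays, over 11 genes. Actc1, the other measured gene of that list, ran against the rest and was left out after values were seen.

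The comparison of PBS-treated pregnant with non-pregnant uterus asked how the replication genes differ at day 12 of pregnancy. Rrm2 rose 14.1-fold, more than any other member, and Mcm2, Mcm3, Mcm4, Mcm5 and Mcm6 rose 1.63- to 2.30-fold. In all, 6 of the 9 members were higher at an adjusted p under 0.05, against 22.9% of all genes, and 0 were lower, against 23.7%. Mcm7, Rrm1 and Pcna did not pass. The median log2 difference of the members was 0.90, against -0.03 over all genes. In bulk tissue, more or fewer cells of a type cannot be told apart from more or less RNA per cell.

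Among the helicase genes, Mcm2 had the largest difference. Its log2 level was 8.52, 8.14, 8.79, 8.66 and 8.42 on non-pregnant arrays 1 to 5, and 10.00, 9.59, 9.77, 9.64 and 9.55 on PBS arrays 1 to 5. Every PBS array lay above every non-pregnant array, and the difference was 1.20 with a standard error of 0.29 (limma, adjusted p = 0.00382). Mcm5 read 10.59, 10.01, 10.64, 10.68 and 10.16 on non-pregnant arrays and 11.39, 11.52, 11.46, 11.75 and 11.41 on PBS arrays. Its groups did not overlap either, and it differed by 1.09 (SE 0.34, limma adjusted p = 0.0160). Mcm4 rose by 0.90 (SE 0.26, limma adjusted p = 0.0108) from 11.11 ± 0.18 to 12.01 ± 0.17 (SD, n = 5 each), with no overlap.

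Mcm3 and Mcm6 rose less clearly, since single arrays of both groups overlapped. Mcm3 ranged from 6.37 to 7.33 on non-pregnant and from 7.23 to 8.34 on PBS arrays, a difference of 0.90 (SE 0.32, limma adjusted p = 0.0329). Mcm6 ranged from 9.43 to 10.33 and from 10.29 to 10.81, a difference of 0.71 (SE 0.25, limma adjusted p = 0.0307). Both calls depended on single arrays: the adjusted p of Mcm3 was 0.0846 without non-pregnant array 5 and that of Mcm6 was 0.0788 without non-pregnant array 2. Mcm7 gave the reverse case. Its levels of 7.59 to 8.41 on non-pregnant and 8.69 to 9.12 on PBS arrays did not overlap, while its difference of 0.79 (SE 0.32) had a limma adjusted p of 0.0582. With non-overlap as the measure, 5 of the 9 members were higher on PBS arrays (Mcm2, Mcm4, Mcm5, Mcm7 and Rrm2), against 21.1% of all genes.

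Rrm2 had log2 levels of 6.64, 5.52, 6.16, 6.96 and 6.24 on non-pregnant arrays and of 10.46, 10.31, 9.94, 10.09 and 9.81 on PBS arrays. The gap between the groups was wider than the range within either. The difference was 3.82 (SE 0.40, 95% interval 2.96 to 4.68, limma adjusted p = 4.88e-06). Its size depended on the background step: the authors' log2 values gave 2.73, or about 6.6-fold, and no background correction gave 2.74, or about 6.7-fold, both past the test. Rrm1, its partner subunit, read 9.88, 8.38, 9.59, 9.55 and 8.57 on non-pregnant arrays and 10.69, 10.01, 10.21, 9.69 and 9.76 on PBS arrays. Non-pregnant array 1 lay inside the PBS range, and the difference of 0.88 (SE 0.35) had a limma adjusted p of 0.0536. Pcna was close to background. It was detected on 4 of 5 non-pregnant, 5 of 5 PBS and 3 of 4 PC61 arrays, and its difference of 0.48 had a 95% interval of -0.26 to 1.21 (limma adjusted p = 0.272).

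Placental and embryonic RNA moved with this comparison. The mean log2 level of 16 trophoblast markers was 4.60 to 4.76 on non-pregnant arrays, where 14 of them were detected on no array, and 10.32 to 10.73 on PBS arrays. That of 8 embryonic erythroid markers was 5.08 to 5.54 on non-pregnant arrays, where Hba-x, Hbb-bh1, Hbb-y and Klf1 were detected on none, and 11.81 to 11.87 on PBS arrays. Uterine NK markers, 9 genes, read 5.44 to 5.62 and 8.33 to 8.64. Of these 6 rose, most of all Gzmd, Gzmg and Gzme, while Il2rb and Eomes did not pass. Klrb1c fell, with a difference of -0.56, and was detected on no PBS array. Of 12 decidual markers 2 rose, Prl8a2 by 8.99 and Cryab by 2.19, and 4 fell, with differences of -2.86 for Pgr, -1.62 for Hand2, -1.24 for Hoxa11 and -0.76 for Dcn. Without Prl8a2 the other 11 had a mean of 8.16 to 9.21 on non-pregnant and 8.31 to 8.88 on PBS arrays, which overlap. The part of these cells in the replication gene differences was not tested.

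**Figure D1:**
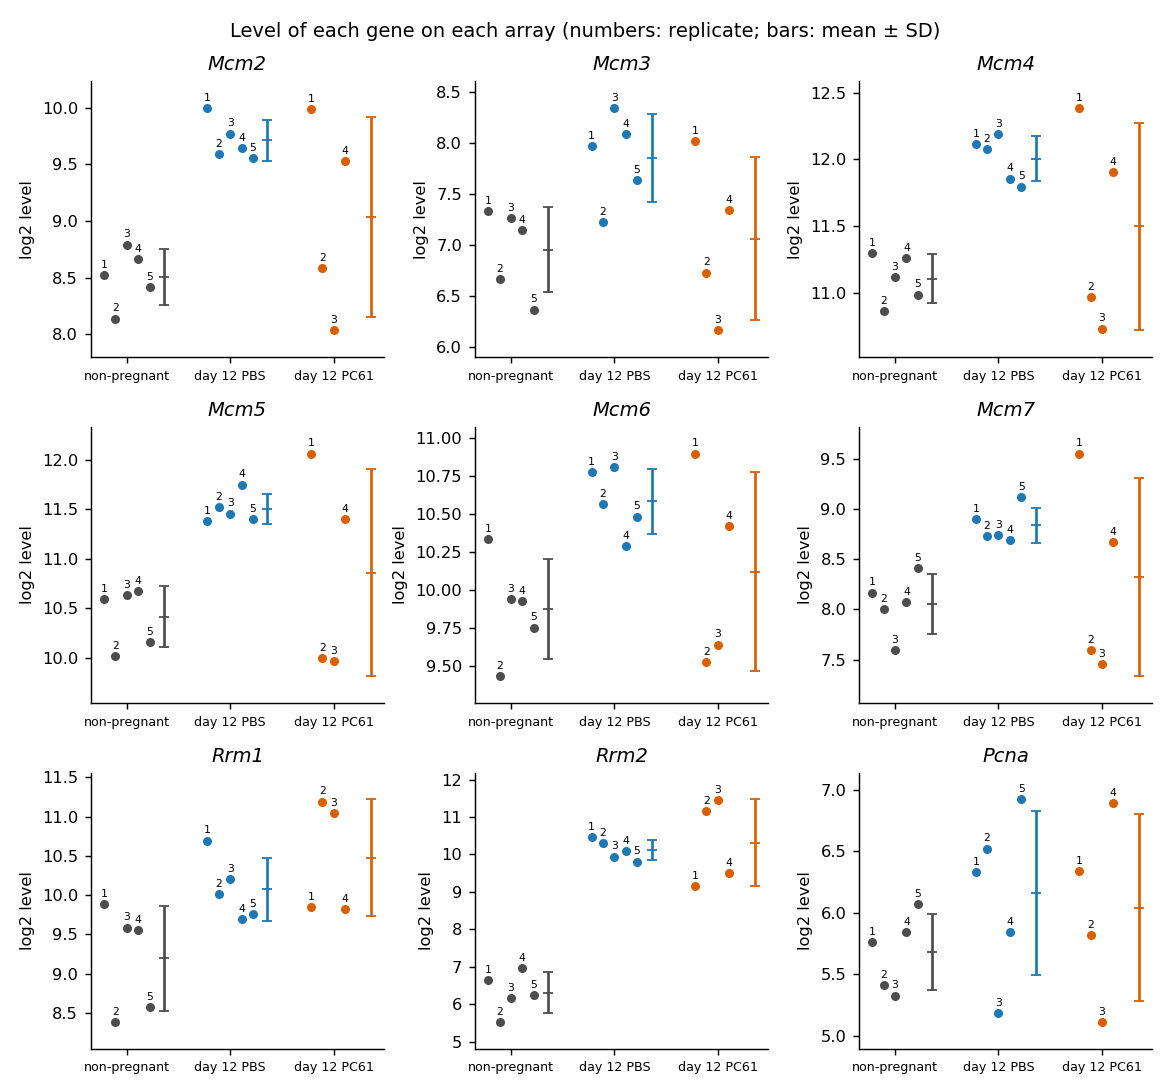
Normalized log2 level of each of the 9 genes on each array, by group, with points numbered by replicate and bars for the group mean ± SD. Rrm2 lies near 6 on non-pregnant arrays and above 9 on every pregnant array, while the Mcm genes on PC61 arrays 2 and 3 lie below every PBS array.

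The comparison of PC61 with PBS asked how uterine tissue of PC61-treated mice differs from the pregnant control. The labels call these mice depleted of regulatory T cells, and the Foxp3 difference was -0.06 (limma adjusted p = 0.886). Among 7 T cell markers, Cd3d, Cd3e, Cd3g and Cd2 were detected on no PBS array and Ctla4 on 1. Cd8b1 and Foxp3 were detected on all 5, with Foxp3 at 9.32 to 9.67. Whether the Foxp3 probe follows the number of such cells was not tested. The 6 helicase genes had group means 0.46 to 0.79 lower on the log2 scale after PC61, Rrm1 and Rrm2 had means 0.40 and 0.20 higher, and none of these differences passed the test. At an adjusted p under 0.05, 0 of the 9 members were called, against 0% of all genes. At an unadjusted p under 0.05 limma gave 2 members, Mcm2 and Mcm3, against 15.5% of all genes. The limma adjusted p of the members ran from 0.291 to 0.899, and 0 of 9 had groups without overlap, against 1.81% of all genes. The median log2 difference was -0.51 for the members and 0.01 for all genes.

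The group means hide unlike arrays, although arrays 2 and 3 resembled each other. Mcm2 read 9.98, 8.59, 8.03 and 9.53 on PC61 arrays 1 to 4, beside 9.55 to 10.00 on PBS arrays, and Mcm5 read 12.07, 10.00, 9.97 and 11.40, beside 11.39 to 11.75. Mcm4 read 12.39, 10.97, 10.73 and 11.90, beside 11.80 to 12.19. Arrays 2 and 3 were low for each of these genes, and arrays 1 and 4 were near or above the PBS range. Mcm3 (8.02, 6.73, 6.17 and 7.34), Mcm6 (10.90, 9.52, 9.64 and 10.42) and Mcm7 (9.55, 7.60, 7.45 and 8.67) were likewise lowest on arrays 2 and 3.

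The reductase genes ran the other way. Rrm1 read 9.84, 11.19, 11.05 and 9.82 on PC61 arrays 1 to 4, beside 9.69 to 10.69 on PBS arrays, and Rrm2 read 9.16, 11.16, 11.45 and 9.51, beside 9.81 to 10.46. For both genes arrays 2 and 3 lay above every PBS array, while Rrm2 on arrays 1 and 4 lay below every PBS array. Pcna read 6.34, 5.82, 5.11 and 6.89, and only array 3 fell outside the PBS range of 5.18 to 6.92, where the gene was not detected.

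Counted array by array, 6 of 6 helicase genes lay below the PBS range on array 2 and 6 of 6 on array 3, where 30.8% and 32.5% of all genes did. Both reductase genes lay above the PBS range on these arrays, as did 32.1% and 31.6% of all genes. On array 1, 4 of 6 helicase genes lay above the PBS range, against 33.8% of all genes. On array 4, 4 of 6 lay within it, a share like the 65.1% of all genes. Set against the non-pregnant range, 5 of 6 helicase genes lay within it on array 2, against 41.1% of all genes. On array 3 only Mcm6 did, against 40.7%, and the other 5 lay below it, against 32.6%.

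As a mean over the 6 helicase genes, relative to the non-pregnant mean, PC61 arrays 1 to 4 read 1.33, -0.25, -0.49 and 0.73 on the log2 scale, beside 0.80 to 1.07 on PBS arrays and -0.30 to 0.22 on non-pregnant arrays. The mean of Rrm1 and Rrm2 on the same scale read 1.75, 3.43, 3.50 and 1.91, beside 2.04 to 2.83 and -0.80 to 0.51. The helicase mean lay within the non-pregnant range on array 2 and below it on array 3, while the reductase mean lay above the PBS range on both.

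**Figure D2:**
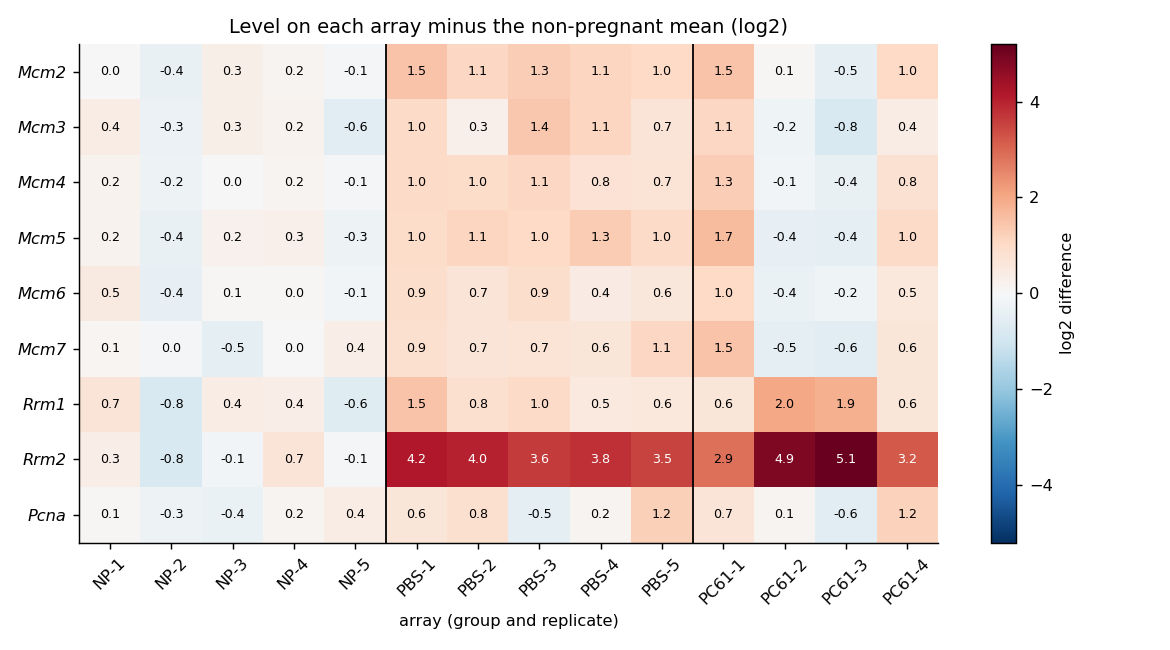
Log2 level of each member on each array minus the non-pregnant mean of that gene, with arrays in columns by group (NP is non-pregnant) and genes in rows. On PC61 arrays 2 and 3 the Mcm rows are near or below 0 while the Rrm2 row exceeds 4.8.

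Markers of other tissues differed between the same arrays. Relative to the non-pregnant mean, the 8 embryonic erythroid markers read 6.53, 4.22, 3.95 and 6.34 on PC61 arrays 1 to 4, beside 6.42 to 6.48 on PBS arrays. The 16 trophoblast markers read 0.52, 0.76, 2.94 and 6.34, beside 5.65 to 6.05, so array 1 had helicase levels above the PBS mean with little trophoblast RNA. Uterine NK markers read -0.46, 3.84, 3.68 and 3.05, beside 2.76 to 3.07. Prl8a2, a decidual prolactin gene, read 5.85, 13.58, 13.62 and 13.65 as a level, and the other 11 decidual markers read -0.90, 0.57, 0.69 and -0.35 relative to the non-pregnant mean, beside -0.38 to 0.19. Without Actc1, 11 smooth muscle markers read 0.12, 0.65, 0.44 and -1.97, beside -1.42 to -0.90. Actc1, the actin of heart muscle, had levels of 11.84 and 11.38 on arrays 1 and 4, beside 10.91 to 11.38 on PBS arrays, was lower on arrays 2 and 3, down to 6.12, and was detected on no non-pregnant array. Among PC61 arrays the NK list, the 11 decidual markers and the 11 smooth muscle markers were highest on arrays 2 and 3, where Rrm1 and Rrm2 were highest. A list of oestrogen-induced uterine genes (-2.67, -1.06, -1.02 and -3.06) and T cell markers (-0.36, -0.11, -0.17 and -0.64) were highest there too. The 10 uterine epithelial markers were not, and read -1.85, -1.29, -0.98 and -0.43, beside -0.77 to -0.41 on PBS arrays, highest on array 4. Single decidual genes differed, with Hand2 lowest on arrays 2 and 3. The decidual and muscle lists share Des. The part of tissue make-up in the member differences was not tested.

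With weights estimated for each array, PC61 arrays 1 to 4 received 0.166, 2.11, 1.39 and 0.173. The fit then called 6 members lower and 2 higher in PC61 than in PBS. Of all 10478 genes it called 1922 lower and 2105 higher, so many calls were not particular to the members. Mcm5 then differed by -1.35 (limma, adjusted p = 0.000274) and Rrm2 by 0.98 (adjusted p = 0.0174). That fit rests mainly on arrays 2 and 3. Without PC61 array 4, limma called 818 genes higher and 711 lower, but 0 members.

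The PC61 arrays were also set against non-pregnant uterus, a comparison that shares its arrays with both others. Rrm2 rose 16.2-fold and Rrm1 2.43-fold, and no other member passed. That is 2 of 9 members higher, against 13.7% of all genes. Rrm2 differed by 4.01 (SE 0.43, 95% interval 3.10 to 4.93, limma adjusted p = 7.81e-06) and did not overlap, with every PC61 array at 9.16 or more. The authors' log2 values gave 2.93, or about 7.6-fold. Groups without overlap in the upward direction were found for 1 of the 9 members, against 9.78% of all genes. Rrm1 differed by 1.28 (SE 0.37, limma adjusted p = 0.0193). Its call was lost without PC61 array 2 (adjusted p = 0.0608), without array 3 (0.0555), with median scaling (0.0962) and in the fit of these 2 groups alone (0.0570).

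The helicase genes differed from the non-pregnant group by 0.11 to 0.53, with limma adjusted p from 0.225 to 0.842. The intervals remain wide, -0.14 to 1.19 for Mcm2 and -0.62 to 0.84 for Mcm3. Mcm2 passed without PC61 array 3, at 0.86 (adjusted p = 0.0251). Pcna differed by 0.36 with an interval of -0.42 to 1.14 (limma adjusted p = 0.495).

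**Figure D3:**
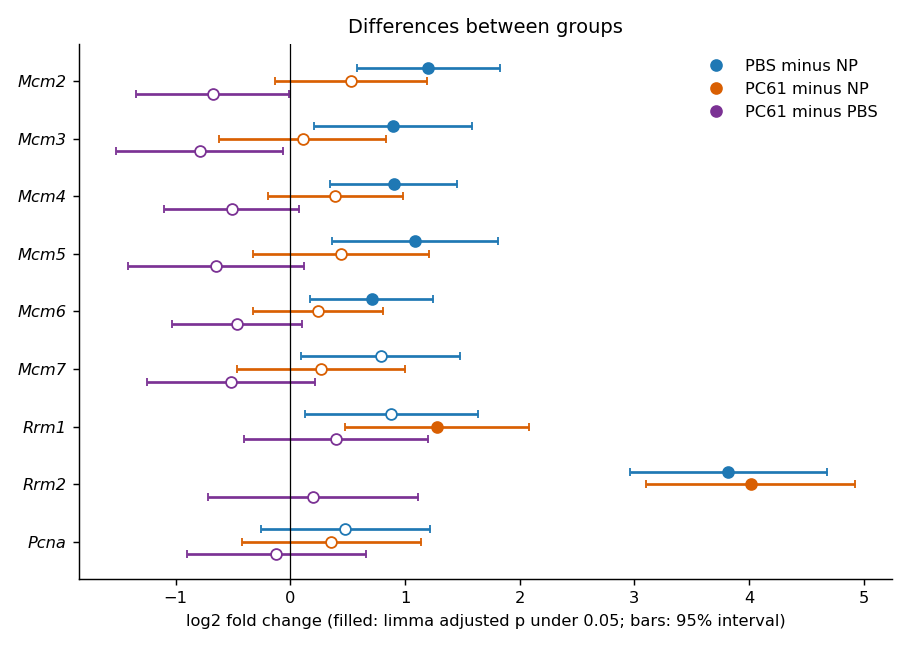
Log2 difference of each member with its 95% interval in the 3 comparisons, PBS minus non-pregnant, PC61 minus PBS and PC61 minus non-pregnant (NP), with filled points past an adjusted p of 0.05. Rrm2 stands near 4 in both comparisons with non-pregnant uterus and near 0 between the pregnant groups.

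For all 6 helicase genes the mean was lowest in the non-pregnant group, intermediate after PC61 and highest after PBS. The lower end of that order was not stable: with array weights all 6 lay 0.06 to 0.49 below the non-pregnant mean after PC61, and without PC61 array 1 Mcm3, Mcm6 and Mcm7 did. Rrm1 and Rrm2 had their highest mean after PC61, at 10.47 ± 0.75 and 10.32 ± 1.15 (SD, n = 4), beside 10.07 ± 0.40 and 10.12 ± 0.26 (n = 5) after PBS. That order turned for Rrm2 without PC61 array 2, without array 3 and with median scaling. The 2 pregnant groups overlapped for every member, and no member passed the test between them.

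Over the 14 arrays, log2 levels of the 6 helicase genes correlated with each other at Pearson's r of 0.72 to 0.97 in 15 pairs, and with Rrm1 or Rrm2 at -0.14 to 0.46 in 12 pairs. For deviations from the group means the values were 0.57 to 0.95 and -0.75 to -0.09, and Rrm1 with Rrm2 had 0.82. All points share 1 normalization, and PC61 arrays supply the widest deviations, so these are descriptions of 14 arrays.

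Spread among non-pregnant arrays was uneven across the members. Rrm1 had an SD of 0.67, above that of 93.2% of all genes in this group, and Rrm2 one of 0.54, above 88.9%. Mcm4 had 0.18, above only 30.1%. These SDs depended on the processing. With the authors' values Rrm2 had 0.23, Mcm3 0.22 in place of 0.42, Pcna 0.1 in place of 0.31 and Rrm1 0.56. Median scaling gave 0.61 for Mcm4, 0.83 for Mcm7, 0.85 for Rrm2 and 0.92 for Rrm1. The median SD was 0.31 for the members and 0.25 for all genes among non-pregnant arrays, 0.22 and 0.24 among PBS arrays, and 0.80 and 0.41 among PC61 arrays. The SD of 7, 4 and 9 of the 9 members exceeded the median of all genes in these groups.

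Non-pregnant array 2 was the lowest for 6 of the 9 members, and array 5 was second lowest for Mcm4, Mcm5, Mcm6, Mcm2 and Rrm1. Mcm7 and Pcna had another order, with array 3 lowest and array 5 highest. The G2/M list followed the same arrays, with a mean relative to the group mean of 0.56, -1.33, 0.56, 0.75 and -0.54 on arrays 1 to 5. Cdk1, the mitotic kinase, read 10.29, 7.82, 9.59, 10.13 and 8.72. Oestrogen-induced uterine genes read 0.17, -0.87, 0.78, 0.45 and -0.53 as a list, and Lcn2 read 13.77, 9.86, 14.31, 13.83 and 8.99. Not all genes of that list followed. Ltf, another oestrogen target, read 11.74, 13.24, 13.28, 12.59 and 12.56 and was not low on arrays 2 and 5. Ihh read 6.58, 8.78, 4.67, 5.13 and 8.85 and was highest on arrays 2 and 5. With 5 arrays no correlation is given, and the part of the oestrous cycle was not tested.

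**Figure D4:**
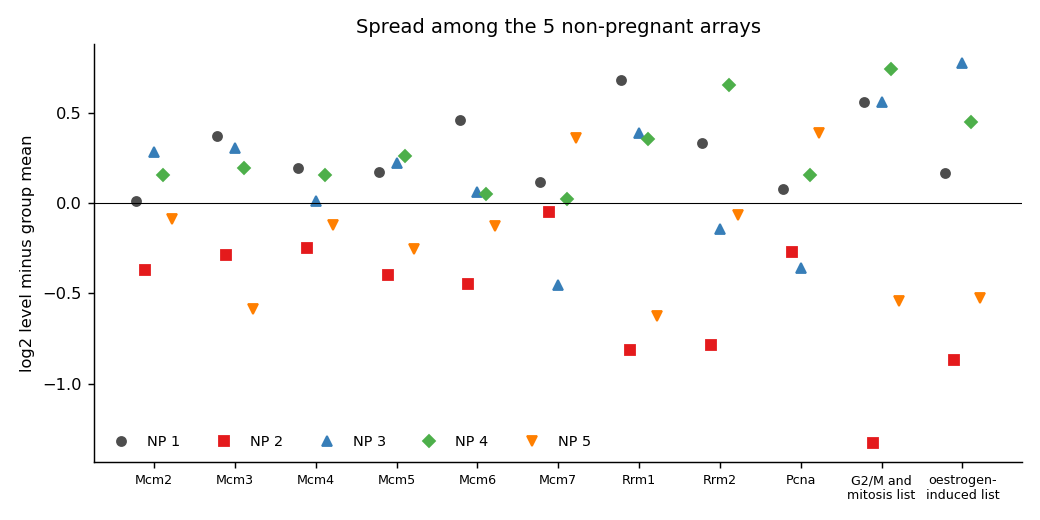
Levels on the 5 non-pregnant arrays relative to the group mean, for the members and for the G2/M and oestrogen-induced lists. Array 2 is lowest for 6 members and for both lists.

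Several members had more than 1 probe, and not all probes gave the same result. Mcm6 had 3: the reported one at 0.71 in the PBS comparison, a second at 0.87 (limma adjusted p = 0.0125 over all 20967 probes) and another, ILMN_1217331, at 0.09 (adjusted p = 0.842). The first pair correlated at 0.91 over the 14 arrays, and ILMN_1217331 correlated with them at 0.52 and 0.32. The second Mcm7 probe gave 1.11 (adjusted p = 0.00793) where the reported one did not pass. The second Rrm1 probe gave 0.97 (adjusted p = 0.0159) where the reported one did not pass, and it rose by 1.36 between PC61 and non-pregnant arrays (adjusted p = 0.00533). Both Rrm2 probes rose, at 3.82 and 3.48. On PC61 arrays 1 to 4 the second Rrm2 probe read 8.50, 10.53, 10.62 and 9.06, with the same high arrays as the first.

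Other replication genes were counted in the PBS comparison against the 22.9% of all genes that were higher. Of 18 measured genes of origin licensing and firing, 12 rose, 0 fell and 6 did not pass, with a median log2 difference of 1.04. Cdt1, which loads the helicase, rose by 1.81 (SE 0.31), Cdc45, part of the active helicase, by 1.26 (SE 0.26), Cdc7, the kinase that triggers firing, by 1.05 (SE 0.20) and Recql4 by 1.13 (SE 0.24). Of 31 genes of polymerases and fork proteins 18 rose and 12 did not pass, with a median of 0.63. Those that rose included Clspn, a fork checkpoint mediator, by 1.65, Chaf1a, a histone chaperone, by 1.41 and Dnmt1, the maintenance methyltransferase, by 1.26. Rnaseh2b was the one that fell, by 0.61. It was named after its value was seen.

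The other nucleotide supply genes did not share the rise of Rrm2. Of 27 measured, 2 rose and 3 fell, with a median of -0.07. Dut, which removes dUTP, rose by 0.73 and Dck, the deoxycytidine kinase, by 0.65, while the purine synthesis genes Adsl and Gart fell by 0.68 and 0.54, and the pyrimidine synthesis gene Cad fell by 0.49. Tyms, thymidylate synthase, and Rrm2b, the alternative small subunit of the reductase, had differences of 0.27 and -0.36 with limma adjusted p of 0.467 and 0.203. Cad, Tyms and Rrm2b were named after their values were seen.

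Of 25 G1/S regulators 13 rose and 2 fell. E2f1, E2f2 and E2f3, the activating E2F factors, rose by 1.34, 2.29 and 1.42, and Cdkn1c, a cyclin kinase inhibitor, rose by 3.94 (SE 0.43). Ccne2 rose by 1.32. Cdkn2c and Myc were the 2 that fell, by 0.86 and 0.80, named after their values were seen. Myc was close to background, detected on 4 of 5 non-pregnant, 3 of 5 PBS and 0 of 4 PC61 arrays. Of 21 G2/M genes 12 rose and 0 fell, with Kif2c, a mitotic kinesin, at 2.03 and Cenpa, the centromeric histone, at 1.52.

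Between PC61 and PBS arrays 0 genes of these 5 lists were called, and all list medians lay below 0: -0.26, -0.36, -0.20, -0.31 and -0.48 for origin, fork, nucleotide, G1/S and G2/M genes. Against non-pregnant uterus, PC61 arrays had 5 of 18 origin genes higher, and 3 of 31 fork genes higher and 1 lower. They had 2 of 27 nucleotide genes higher and 7 lower, and 7 of 25 G1/S genes higher and 2 lower. Of 21 G2/M genes 1 was higher. Of all 10478 genes 13.7% were higher in that comparison. Leaving out each array in turn gave 1240 to 1545 genes lower there. Relative to the non-pregnant mean, the origin list read 1.30, 0.10, -0.02 and 0.95 on PC61 arrays 1 to 4 and the G2/M list 1.63, 0.14, 0.02 and 1.05, both lowest on array 3 as the helicase mean was. The nucleotide supply list read 0.09, -0.37, -0.36 and -0.16. On arrays 2 and 3, 20 of 21 G2/M genes lay below the PBS range, against 30.8% and 32.5% of all genes. All 21 lay within the non-pregnant range, against 41.1% and 40.7%, a range that was wide for this list (-1.33 to 0.75).

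Cdt1 read 10.31, 8.64, 8.51 and 10.15 on PC61 arrays 1 to 4, beside 9.83 to 10.59 on PBS arrays. E2f2 read 9.46, 7.70, 7.57 and 8.81, beside 8.89 to 9.48, and Cdkn1c read 14.63, 12.50, 12.32 and 14.71, beside 14.75 to 15.01. Arrays 2 and 3 were low for Cdt1, E2f2 and Cdkn1c. Not all named genes of these lists followed on array 2. E2f1 read 9.29 there, inside its PBS range of 9.23 to 9.55, and Cdc7 read 9.56, inside 9.54 to 9.84. On array 3 both lay below, at 8.94 and 9.22. Dut, the nucleotide gene of lowest p in the PBS comparison, read 7.57, 8.04, 7.52 and 7.50, beside 7.31 to 7.69. Array 2 alone lay above that range. Tyms read 10.03, 8.92, 8.44 and 10.05, beside 9.55 to 10.23, so it was low where Rrm2 was high.

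**Figure D5:**
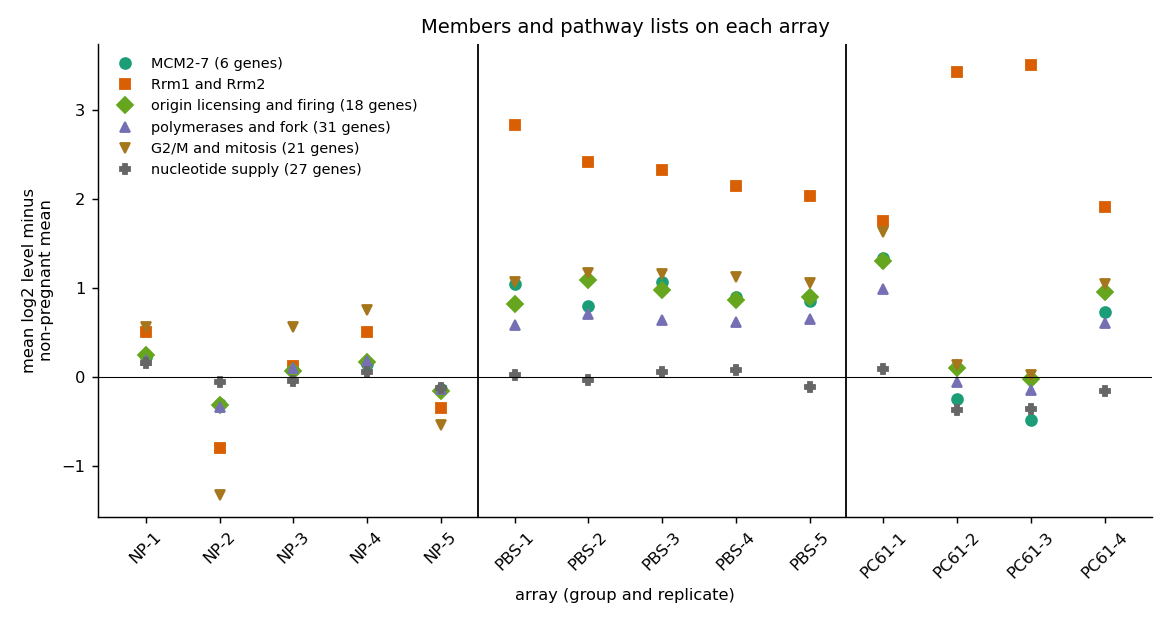
Mean log2 level of each gene list minus its non-pregnant (NP) mean on each array, for the helicase and reductase genes and 4 other lists. Origin, fork and G2/M lists follow the helicase genes down on PC61 arrays 2 and 3, while Rrm1 and Rrm2 lie higher there than on any PBS array.

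By Pearson's r over the 14 arrays with the mean standardized level of the 9 members, the most similar genes were Clspn (0.986), Ctse (0.979), Rad54b (0.976), Cenpn (0.971) and Blm (0.966). By deviations from the group means they were Tipin (0.966), Clspn (0.965), Ncapd2 (0.952), Rad54b (0.948) and H2ax (0.944). Since helicase and reductase genes differed, each set was also taken alone, after values were seen. The helicase set was most like Ilf2 (0.974) by levels and Shisa2 (0.968) and Cdk2 (0.967) by deviations. The reductase pair was most like Pdpn (0.964) by levels and Il15 (0.970) by deviations, with Cdkn1a at 0.949 by levels.

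Clspn followed the helicase genes, at 9.82, 8.16, 7.75 and 9.36 on PC61 arrays 1 to 4, beside 9.17 to 9.55 on PBS arrays. Cdkn1a, the p21 cyclin kinase inhibitor, read 9.23, 11.05, 10.91 and 9.45, beside 9.50 to 9.87. Il15, the cytokine that maintains NK cells, read 6.35, 8.44, 8.54 and 6.26, beside 6.25 to 7.27. Both were highest among the PC61 arrays on arrays 2 and 3, as Rrm1 and Rrm2 were. On non-pregnant arrays Il15 was higher still, at 9.37 to 10.89, where Rrm2 was low, so the likeness of Il15 lies within groups and not between them.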

How the data were processed

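Total RNA of 14 uterine samples was labelled as biotinylated cRNA and measured on Illumina BeadChips. The deposited table gives, per the file headers, an average intensity and a detection p-value for each of 45281 probes on each array. A series matrix of the authors gives log2 values for 16948 probes, and its normalization is not given in the sources used here. It was used as an alternative. How the authors obtained the deposited intensity values is likewise not stated there.

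The neqc function of limma 3.58.1 (R 4.3.3) fits a normexp background from the detection p-values, adds an offset of 16, quantile-normalizes and takes log2. The offset shrinks the differences of dim probes. A probe was kept if 4 or more of the 14 arrays had a detection p under 0.01, which left 20967. The brightest probe on average stood for its gene, which gave 10478 genes. Gene symbols were read for probes among the 16948 with log2 values from the authors, and were updated through Entrez identifiers. Of the 45281 probes, 29807 had no symbol, and 5 had several and were not named. How the authors chose their 16948 probes is not stated in the sources used here. The 10478 genes and the 14 member probes thus come from that choice, and shares of all genes do not describe the whole array. Levels of different genes cannot be compared with each other on this array.

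A limma fit (lmFit, eBayes) of 3 group means (11 residual and 3.36 prior degrees of freedom) gave two-sided p-values, adjusted by Benjamini-Hochberg over all genes, and an adjusted p under 0.05 was called. Intervals are 95% intervals of that fit. The number of arrays limits the precision. No 2 arrays were identical. The script was tested on simulated data.

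The members and the gene lists were chosen with earlier results of these data known. Named genes were all members, up to 4 measured genes of lowest p between PBS and non-pregnant arrays and up to 2 between PC61 and PBS arrays from each pathway list, and the 5 genes most like the members by each of 2 correlations. Alternatives were the authors' values, median scaling, no background correction, an offset of 50, other filters and probes, array weights, another prior, fits of 2 groups, the replicate block and leaving out each array. Fits of each other probe of a member, and marker lists without Prl8a2 or Actc1, were added after seeing the data. Replicate numbers are shared between groups, but deviations of same-numbered arrays correlated at -0.17 to 0.33, above 0.1 in 4 of 13 pairs, so the numbers were not taken to pair the samples.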

Additional observations from a re-analysis of the deposited data

How the results depend on the processing

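The rises of Mcm2, Mcm4, Mcm5 and Rrm2 between PBS and non-pregnant arrays and of Rrm2 between PC61 and non-pregnant arrays passed under all alternatives run, and the Rrm2 differences ranged from 2.73 to 3.98 and from 2.93 to 4.57. The cause of the changes below was not tested unless stated. Median scaling moved the median of all genes by 0.16, -0.30 and -0.15 in the PBS minus non-pregnant, PC61 minus PBS and PC61 minus non-pregnant comparisons. It gave 1196 genes lower in the first, 303 lower with a member median of -0.81 in the second, and 880 higher, 914 lower and 1 member higher in the third. Rrm2 turned to -0.09 (PC61 minus PBS) and Mcm3 to -0.05 (PC61 minus non-pregnant). Keeping only probes detected on all 14 arrays, which tests 7805 genes, left 1343 genes higher in the first and 701 in the third. Array weights called 2105 genes higher and 1922 lower between PC61 and PBS, with 2 members higher, 6 lower and a median of -1.03. Against non-pregnant arrays the median became -0.21, with Mcm2 -0.06, Mcm3 -0.49, Mcm4 -0.21, Mcm5 -0.38, Mcm6 -0.34, Mcm7 -0.40 and Pcna -0.10.

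The fit of the 2 groups alone and the replicate block each left 1 member higher between PC61 and non-pregnant arrays. Under the replicate block Rrm1 stood there at 1.16 (limma adjusted p = 0.0507), Mcm7 passed in the PBS comparison (adjusted p = 0.0356) and Pcna was 0.02 between PC61 and PBS. Leaving out each array gave 2140 to 2616 genes higher, 2244 to 2635 lower, 4 to 8 members higher and a median of 0.82 to 0.99 in the PBS comparison. Between PC61 and PBS it gave 0 to 818 genes higher and 0 to 711 lower, 0 members and a median of -0.81 to -0.25. Between PC61 and non-pregnant arrays it gave 1214 to 1554 higher, 1240 to 1545 lower, 1 to 2 members and a median of 0.09 to 0.67. Members that changed sign there were Mcm3 (-0.21 to 0.41, below 0 without non-pregnant array 5 or PC61 array 1), and Mcm6 (-0.01 to 0.44) and Mcm7 (-0.14 to 0.56), both below 0 without PC61 array 1. Between PC61 and PBS they were Rrm2 (-0.18 to 0.58, below 0 without PC61 array 2 or 3) and Pcna (-0.40 to 0.19, above 0 without PBS array 5 or PC61 array 3). Mcm3 lost its PBS call without 5 single arrays, and Mcm6 without 5 and with the mean (0.56) or dimmest probe (0.09) of a gene. Mcm7 and Rrm1 passed in that comparison in 10 and 8 of 27 alternatives. Dim signal limits Pcna.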
